A study of Mus musculus with 6 samples.

Results

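The Hox genes of the mouse lie in 4 clusters, HoxA on chromosome 6, HoxB on chromosome 11, HoxC on chromosome 15 and HoxD on chromosome 2. They were examined here for trimethylation of histone H3 at lysine 27 (H3K27me3) and at lysine 4 (H3K4me3). Members were chosen by position alone, as every deposited peak that overlapped 1 of 4 windows on mm9 (the submitters' processing notes give this build). The windows were HoxA from 52050000 to 52300000 (250 kb), HoxB from 96040000 to 96260000 (220 kb), HoxC from 102680000 to 102960000 (280 kb) and HoxD from 74470000 to 74650000 (180 kb). They held 69 of the 43384 peaks deposited, namely 32 of 9470 H3K27me3 peaks of proliferating cultures, 28 of 15187 H3K27me3 peaks at 30 h of differentiation and 9 of 18727 H3K4me3 peaks of proliferating cultures.

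All libraries came from C57BL/6 neural stem cells (NSCs) of the mouse subventricular zone (SVZ), the germinal layer along the lateral ventricle, grown as monolayers and used at passages 5 to 7. Per the study's methods, such cultures were started from mice at P7 to P9, were kept in medium with serum, EGF and bFGF, and were differentiated by lowering the serum and leaving both growth factors out. The H3K27me3 libraries were made with antibody Millipore 07-449 from proliferating cultures (labelled N5) and from cultures after 30 h of differentiation (labelled N6). The H3K4me3 library was made with antibody Active Motif 39159 from proliferating cultures that carry the name N5 too, but are labelled ventral. Beyond the strain, no genotype of these cultures is stated in the labels. There was 1 library per mark and time, so no difference below has a replicate check and none was tested. Each peak list holds positions and scores but no read counts, so the depth of the libraries is unknown and a peak may be missing from a list for lack of depth. Differentiation time, culture and library cannot be told apart. The identity of the cells could not be checked against marker genes, because peaks were not assigned to genes.

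Hox genes encode homeodomain transcription factors that give cells of the embryo their position along the head-to-tail axis. Within a cluster the genes stand in the order of their domains of action, from paralogue group 1 at the anterior end to group 13 at the posterior end, and the forebrain, which includes the SVZ, forms anterior to their expression domains. H3K27me3 is placed by Polycomb repressive complex 2, whose catalytic subunit is EZH2, and marks silent developmental genes. H3K4me3 marks the starts of active genes, and in stem cells it also occurs at many CpG-rich starts that carry H3K27me3. The study used Hoxa2, a regulator of hindbrain and branchial arch patterning, as a control locus for H3K27me3.

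Of the 38 Hox genes named as members, 10 belong to HoxA, 10 to HoxB, 9 to HoxC and 9 to HoxD. Their order was taken from RefSeq on GRCm38.p6, without positions, and was assumed to be the same in mm9. With rising coordinate HoxA runs from Hoxa2 to Hoxa13, so its posterior end is the high-coordinate end, with Evx1 as the next protein-coding gene. The other clusters run the other way, from Hoxb13 to Hoxb1, from Hoxc13 to Hoxc4 and from Hoxd13 to Hoxd1. Their next protein-coding genes on the high side are Skap1, Smug1 and Mtx2. Peaks were not placed on single genes, since the gene positions at hand are of another build than the peaks.

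The promoters of 22 of the 38 genes were at hand in RefSeq, as 24 stretches of 300 bases each, for 9 genes of HoxA, 3 of HoxB, 1 of HoxC and 9 of HoxD. These held a median of 14.5 CpG dinucleotides (the letters CG, counted on the strand given, which reads the same on both strands), against 7.0 over all 32851 promoters of the table, of which 94.6% hold at least 1. Of the 24, 20 lay above that median. The range was wide, from 4 in Hoxa9, Hoxd4 and 1 of the Hoxd11 promoters to 37 in Hoxd13 and 45 in Hoxa13, the posterior genes that pattern digits and genitalia. The median content of G and C was 57.7% against 52.7% over all promoters. For each cluster, the 250 bases before the start of a member are shown, as examples from each cluster. They come from the lower part of this range, since their 300-base promoters hold 4 (Hoxa9) to 20 (Hoxd9) CpG dinucleotides. Hoxa2 was chosen as the study's own control locus, Hoxa9 and Hoxd9 as paralogues, and Hoxb4 and Hoxc4 because their promoters were at hand. Coordinates are on GRCm38.p6 and are not comparable with those of the peaks. Capitals mark CpG dinucleotides, of which the printed stretches hold 6 in Hoxa2, 3 in Hoxa9, 14 in Hoxb4, 8 in Hoxc4 and 13 in Hoxd9.
Hoxa2 (chr6:52164832-52165081, - strand): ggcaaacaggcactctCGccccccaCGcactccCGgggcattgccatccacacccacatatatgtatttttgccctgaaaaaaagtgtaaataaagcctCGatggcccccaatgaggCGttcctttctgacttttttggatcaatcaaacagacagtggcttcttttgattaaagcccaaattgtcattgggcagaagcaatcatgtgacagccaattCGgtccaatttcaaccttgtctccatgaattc
Hoxa9 (chr6:52227371-52227620, - strand): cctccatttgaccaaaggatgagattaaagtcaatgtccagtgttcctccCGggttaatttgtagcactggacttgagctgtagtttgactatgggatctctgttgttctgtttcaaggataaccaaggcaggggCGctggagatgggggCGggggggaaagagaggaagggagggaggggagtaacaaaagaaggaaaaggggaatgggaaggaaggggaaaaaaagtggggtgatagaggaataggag
Hoxb4 (chr11:96318017-96318266, + strand): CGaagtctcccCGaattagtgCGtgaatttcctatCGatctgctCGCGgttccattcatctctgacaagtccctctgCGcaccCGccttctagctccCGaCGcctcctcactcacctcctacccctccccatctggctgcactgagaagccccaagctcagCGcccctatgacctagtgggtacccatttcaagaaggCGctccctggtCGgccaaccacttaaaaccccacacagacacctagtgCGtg
Hoxc4 (chr15:103034145-103034394, + strand): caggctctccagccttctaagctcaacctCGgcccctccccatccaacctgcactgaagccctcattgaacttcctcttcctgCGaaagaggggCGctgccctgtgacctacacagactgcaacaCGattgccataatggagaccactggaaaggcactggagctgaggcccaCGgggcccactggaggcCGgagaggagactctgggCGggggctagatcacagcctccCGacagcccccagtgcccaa
Hoxd9 (chr2:74697513-74697762, + strand): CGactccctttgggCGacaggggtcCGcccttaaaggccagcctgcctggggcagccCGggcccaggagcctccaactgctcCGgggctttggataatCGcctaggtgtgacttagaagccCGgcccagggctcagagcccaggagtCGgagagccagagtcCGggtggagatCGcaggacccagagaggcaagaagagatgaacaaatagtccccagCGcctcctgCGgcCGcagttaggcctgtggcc

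The study's primer pair for ChIP-qPCR at its HoxA2b control locus is shown because the study measured H3K27me3 there by PCR as well. Neither primer matched any of the 32851 promoter stretches. The place of the pair relative to the peaks was not analysed here, since the sequences at hand are of another build than the peaks. Capitals mark CpG dinucleotides.
HoxA2b forward: aagttgatggCGaaggaaga
HoxA2b reverse: gcctctCGcctcctcttaat

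The clusters also hold microRNA genes, shown here because paralogous clusters, which arose by duplication, share them. Mir196b lies in HoxA, Mir196a-1 in HoxB and Mir196a-2 in HoxC, beside paralogue group 9 in each, and Mir10a in HoxB and Mir10b in HoxD lie beside paralogue group 4. Within each family the seed (bases 2 to 8, in capitals) is the same.
mmu-miR-196a-5p: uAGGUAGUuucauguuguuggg
mmu-miR-196b-5p: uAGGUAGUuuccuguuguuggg
mmu-miR-10a-5p: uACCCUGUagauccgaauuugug
mmu-miR-10b-5p: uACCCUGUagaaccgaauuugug

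H3K27me3 covered most of each window in both lists. In proliferating cultures it covered 168.2 kb of HoxA (67.3%), 162.5 kb of HoxB (73.9%), 210.3 kb of HoxC (75.1%) and 123.8 kb of HoxD (68.8%). At 30 h it covered 192.7 kb of HoxA (77.1%), 189.2 kb of HoxB (86.0%), 273.3 kb of HoxC (97.6%) and 160.9 kb of HoxD (89.4%). HoxC was the most covered window at both times and HoxA the least, but these shares depend on where the windows end. Between the first and last proliferating peak, gaps took 15.3 of 183.5 kb in HoxA and 42.0 of 216.9 kb in HoxB. They took 60.6 of 270.9 kb in HoxC and 34.6 of 158.5 kb in HoxD. Within these spans HoxA was thus the most covered in proliferating cultures. At 30 h gaps took 5.4 of 198.0 kb in HoxA and 2.8 of 276.1 kb in HoxC. Across fixed tiles of the genome such coverage was rare. Of 10555 adjoining tiles of 250 kb, 2 (0.0189%) were covered by proliferating H3K27me3 for at least the 67.3% of HoxA, and both overlapped Hox windows, 1 in HoxB and 1 in HoxC. The highest tile elsewhere reached 58.0%, and the mean over all tiles was 1.08%. At 30 h, 4 tiles (0.0379%) reached the 77.1% of HoxA, of which 2 overlapped the same Hox windows. The others, named after their values were seen, lay on chromosome 5 from 107500001 to 107750000 (85.2%) and on chromosome 1 from 74750001 to 75000000 (78.2%). The tiles were not aligned to the clusters, and each of the 4 windows ran across a tile border. No tile over HoxA or HoxD reached these levels. The counts therefore do not show how often a window placed around peaks elsewhere would reach them.

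**Figure D1:**
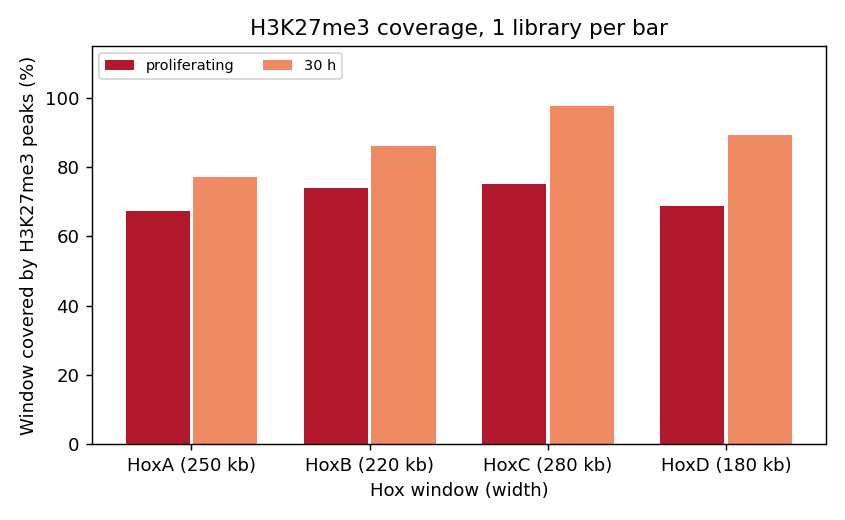
Share of each Hox window covered by H3K27me3 peaks (y axis, percent) in proliferating cultures and at 30 h of differentiation, 1 library per bar, by window (x axis). The 30 h bar is the taller in all 4 windows, from 77.1% in HoxA to 97.6% in HoxC.

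Coverage differed less between the full lists in the Hox windows than elsewhere. Coverage over the 4 windows was 664.8 kb in proliferating cultures and 816.1 kb at 30 h, a ratio of 1.23. Over the lists without the windows the ratio was 2.55, from 28506.9 kb to 72598.3 kb. By cluster the ratio was 1.15 in HoxA, 1.16 in HoxB, 1.3 in HoxC and 1.3 in HoxD. Coverage of a window cannot exceed 100%, which bounds its ratio from above. With 664.8 of 930.0 kb already covered in proliferating cultures, the windows could not reach 2.55. Their lower ratio was therefore fixed in advance. H3K27me3 of the proliferating list was nearly all present at 30 h, since 99.9% of its covered length in the windows lay under 30 h peaks, against 73.7% of the covered length elsewhere. The reverse share was 81.4% in the windows and 28.9% elsewhere. Peaks at 30 h covered 87.8% of the windows and proliferating peaks 71.5%, so high shares would be met there from the coverage alone. When the 30 h list was reduced to its strongest peaks until it covered no more than the proliferating list, coverage was 185.8 kb in HoxA, 168.9 kb in HoxB, 266.6 kb in HoxC and 144.2 kb in HoxD, still above the proliferating value in 4 of 4 windows. In that setting the ratio was 1.15 over the windows, while the 1.0 over the whole lists was set by the cut itself. The cut kept peaks by score, and 35.7% of Hox peaks at 30 h had the top score, against 3.42% of the list. It therefore favoured Hox peaks and cannot show whether their coverage rose. The libraries differ in list length, so whether the mark itself spread was not tested.

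Peak by peak, all 32 proliferating H3K27me3 peaks of the windows overlapped a 30 h peak by 1 bp or more (95% exact binomial interval 89.1 to 100%), against 61.3% of the whole list. Intervals here cover counting error only, and neighbouring peaks of 1 domain are not independent. Peaks at 30 h covered 87.8% of the windows, with gaps of a median of 693 bp, and the narrowest of the 32 peaks was 1284 bp wide. An overlap of 1 bp would thus be met at almost any position in the windows, also by the weaker peaks. The weaker peaks were also taken alone. Of the 7576 proliferating peaks outside the strongest of 5 score groups, 51.8% overlapped a 30 h peak, and all 12 such peaks of the Hox windows did (73.5 to 100%). These 12 peaks were 1.3 to 2.7 kb wide. A 30 h peak of over 10 kb overlapped 8 of them, and 30 h peaks of 4.4 to 8.8 kb overlapped the other 4. In the other direction, 14 of 28 Hox peaks at 30 h overlapped a proliferating peak (30.6 to 69.4%), against 30.7% of the list. Of the 13 Hox peaks at 30 h outside the strongest score group, 1 did (0.195 to 36.0%), against 18.0% of such peaks in the list, a difference within the interval. The 30 h list thus held 14 further peaks beside or between the blocks present in both lists.

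Wide peaks made up 13 of the 32 proliferating Hox peaks (40.6%) and 12 of the 28 Hox peaks at 30 h (42.9%), where wide means over 10 kb. In the whole lists the shares were 3.23% and 7.76%. The median width was 6808 bp for proliferating Hox peaks and 2074 bp for the list, and 8122 bp against 3229 bp at 30 h. The deposited score, the authors' value from the peak caller MACS, rarely goes far past 3100 (the highest is 3233.06). That value or more was reached by 10 of 32 proliferating Hox peaks and by 10 of 28 at 30 h, against 2.41% and 3.42% of the lists, so the main blocks could not be ranked by score.

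**Figure D2:**
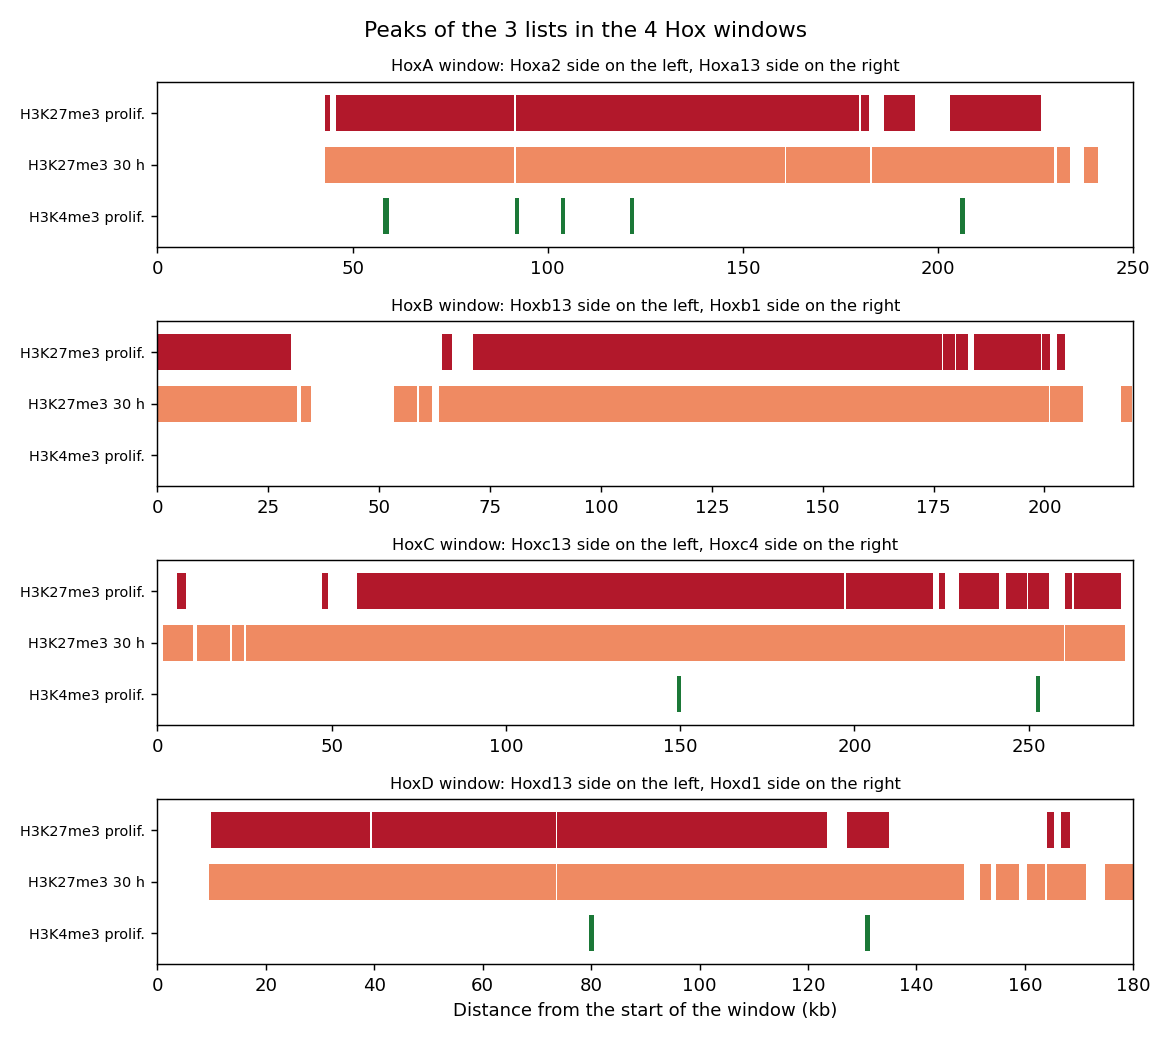
Peaks of the 3 lists (rows) in the 4 Hox windows, drawn to scale along the distance from the start of each window (x axis, kb), with 1 library per row and peaks cut at the window ends. The gene named on each side gives the direction of the cluster. White breaks are stretches without a peak, and the narrowest are below the resolution of the picture. HoxB holds no H3K4me3 peak.

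HoxA stood alone, with no further peak of either H3K27me3 list within 50 kb of its window. In proliferating cultures the 7 peaks began on the Hoxa2 side with a small peak of 1284 bp and a block of 45.7 kb from 52095806 to 52141456. They went on with the widest block, 80.5 kb from 52141772 to 52222283. Towards Hoxa13 followed peaks of 7.5, 1.9 and 8.0 kb and a last block of 23.2 kb from 52253160 to 52276374. The peaks were therefore nearly continuous over 139.3 kb on the side of Hoxa2 and more broken on the side of Hoxa13. Whether those breaks lay over Hox genes or beyond Hoxa13 was not determined. At 30 h the 6 peaks were 48.6, 69.1, 21.5, 46.6, 3.3 and 3.5 kb wide in the same direction, and the first 4 of them stood less than 1 kb apart. HoxA was the only window whose widest peak was narrower at 30 h, at 69.1 kb. A break of 75 bp from 52210893 to 52210967, which lay inside the 80.5 kb proliferating block, ended that peak.

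HoxB held a block on the Hoxb13 side that was apart from the rest of the cluster. In proliferating cultures this block ran from 96027637 to 96070140 (42.5 kb), and a stretch of 34.1 kb without a peak followed. After a peak of 2.2 kb came the widest block, 105.8 kb from 96111074 to 96216907. Towards Hoxb1, the most anterior member and a hindbrain gene, the peaks were 2.9, 2.7, 15.2, 1.9 and 1.6 kb wide. At 30 h the first block was 47.3 kb wide and reached back to 96024051, outside the window. A single peak of 137.5 kb from 96103463 to 96240940 met 6 proliferating peaks. The other 5 peaks at 30 h were 2.3, 5.2, 3.0, 7.4 and 2.5 kb wide, of which 4 met no proliferating peak. The separation between the Hoxb13 side and the rest was present at both times, as a stretch of 18.7 kb at 30 h.

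HoxC had the largest difference in covered length between the lists, 63.0 kb, although the ratio of 1.3 was the same in HoxD. The outer edges of HoxC, taken from peaks overlapping the window, moved by 4.2 and 1.1 kb. At 30 h they lay 1.49 and 2.37 kb from the window ends, and peaks wholly beyond those ends were left out. With the window widened by 50 kb on each side, coverage was 226.7 kb in proliferating cultures and 333.1 kb at 30 h. In proliferating cultures 2 isolated peaks of 2.4 and 1.9 kb lay on the Hoxc13 side, before the block of 139.7 kb from 102737267 to 102876982. Hoxc13 acts in hair and nail formation, and the members towards Hoxc4 act at more anterior levels of the trunk. A block of 25.0 kb followed, and then peaks of 1.8, 11.6, 6.1, 6.1, 2.1 and 13.7 kb towards Hoxc4. At 30 h the 7 peaks were 8.8, 9.3, 3.4, 18.1, 213.1, 3.3 and 17.3 kb wide, and no gap between them was wider than 1120 bp. The 213.1 kb peak from 102723612 to 102936717 alone met 7 proliferating peaks. Once peaks under 3 kb apart were joined, the window held 5 domains in proliferating cultures, the widest of 168.8 kb, and 1 domain of 276.1 kb at 30 h.

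In HoxD the proliferating peaks formed 3 adjoining blocks of 29.3, 30.9 and 49.8 kb, with a peak of 2.9 kb before the last of them. They ran from 74479935 on the Hoxd13 side to 74593463. A peak of 7.9 kb from 74597124 to 74604998 followed, and 2 small peaks of 1.3 and 1.8 kb lay far towards Hoxd1 after 29.2 kb without a peak. At 30 h, 2 blocks of 64.0 and 75.1 kb covered the stretch from 74479443 to 74618776, with a break of 249 bp. Smaller peaks of 2.1, 4.3, 3.3, 4.4, 2.6 and 10.2 kb filled most of the side towards Hoxd1. The block on the Hoxd13 side thus had nearly the same extent in both lists, and the lists differed on the Hoxd1 side.

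The outer edges of H3K27me3 were compared as the start of the first and the end of the last peak overlapping a window. On the Hoxa2 side of HoxA the edge was at 52092873 in proliferating cultures and at 52092825 at 30 h, 48 bp apart. On the Hoxd13 side of HoxD it was at 74479935 and 74479443, 492 bp apart. On the Hoxc4 side of HoxC it was at 102956560 and 102957635, 1075 bp apart. These 3 edges lay at nearly the same place in both full lists, among peaks that overlapped the windows. Peaks wholly outside a window were left out, so an edge near a window end need not be the end of the mark. At 30 h the HoxC edges lay 1.49 and 2.37 kb from the window ends, and the edge on the Hoxb1 side 0.192 kb. With the stronger 50% of each list the edges on the Hoxa2 side were 3.0 kb apart, since the small first peak of the proliferating list was then left out. At 30 h the edge lay further out by 14.5 kb on the Hoxa13 side (52276374 and 52290862), by 15.3 kb on the Hoxb1 side (96244521 and 96259808) and by 16.7 kb on the Hoxd1 side (74638393 and 74655126). It lay further out by 3.6 kb on the Hoxb13 side (96027637 and 96024051) and by 4.2 kb on the Hoxc13 side (102685693 and 102681490). All 8 edges lay further out at 30 h, in a list that covers 2.52 times the length of the other. With the 30 h list reduced to equal covered length, 7 of 8 did. The edge on the Hoxb1 side then lay at 96240940, inside the proliferating edge, and that on the Hoxa13 side lay further out by 3.3 kb. With the stronger 50% of each list the shifts on the Hoxa13 and Hoxb1 sides were 7.5 and 9.4 kb. Several edges were set by separate peaks of 10.2 kb or less. On the Hoxb1 side these were 1.6 kb wide in proliferating cultures and 2.5 kb at 30 h, on the Hoxc13 side 2.4 and 8.8 kb, and on the Hoxd1 side 1.8 and 10.2 kb. On the Hoxa13 side the proliferating edge was the end of the 23.2 kb block and the 30 h edge that of a peak of 3.5 kb.

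The additional coverage at 30 h was uneven along the windows. In HoxA, 22.9 kb of the 24.6 kb covered at 30 h only lay in the high-coordinate 50% of the window, the side of Hoxa13. In HoxC, 48.9 of 63.0 kb lay in the low-coordinate 50%, the side of Hoxc13. HoxB had 17.1 kb on the Hoxb13 side and 9.9 kb on the other, the least uneven of the 4. HoxD had 36.1 of 37.1 kb on the high-coordinate side, which there is the side of Hoxd1. The 50% of the window on the posterior side therefore held more in HoxA, HoxB and HoxC, and the other 50% in HoxD. These are parts of the windows and not of the clusters. Added coverage can lie only where the proliferating list left room, and that room differed between the sides. In HoxB the gaps of 34.1 and 4.6 kb lay on the Hoxb13 side, and in HoxC the gap of 39.1 kb on the Hoxc13 side. In HoxA, 42.9 kb before the first peak lay open on the Hoxa2 side. The added lengths were not set against this room, so a longer part need not be a larger share of it. Whether the added coverage lay over Hox genes or beside them was not determined, as peaks were not placed on genes. The larger part stayed on the same side in each window when the 30 h list was reduced to the covered length of the other, at 16.1 against 1.7 kb in HoxA, 6.6 against 1.7 kb in HoxB, 45.6 against 10.8 kb in HoxC and 22.5 against 0.9 kb in HoxD. H3K27me3 in the proliferating list only came to 0.1 kb in HoxA, 0.3 kb in HoxB and 0.0 kb in HoxC and HoxD.

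**Figure D3:**
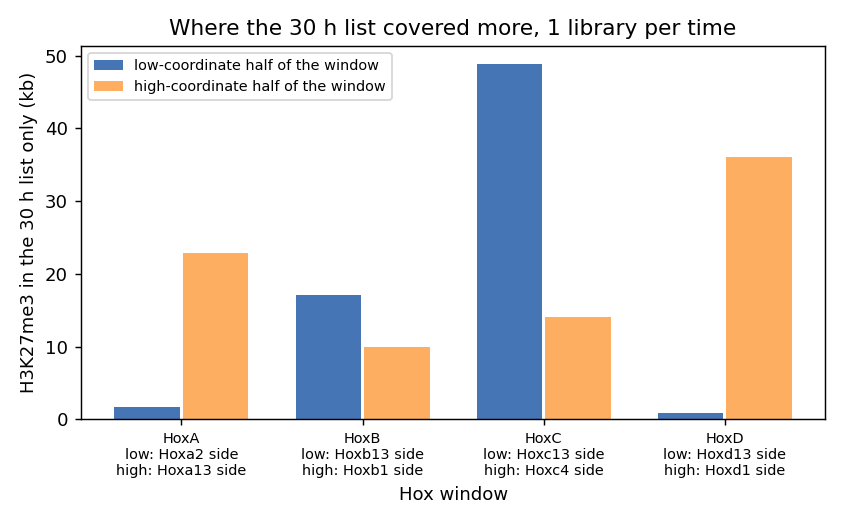
Length under H3K27me3 in the 30 h list only (y axis, kb), in the low-coordinate and the high-coordinate 50% of each Hox window (x axis), 1 library per time. The taller bar is on the side of group 13 in HoxA (22.9 kb), HoxB (17.1 kb) and HoxC (48.9 kb), and on the Hoxd1 side in HoxD (36.1 kb).

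Gaps, the stretches without a peak between the first and the last H3K27me3 peak of a window, numbered 28 in proliferating cultures and 24 at 30 h. The order of these counts turned with windows widened by 50 kb on each side, at 39 and 42. Within the windows as given, their total length was 152.5 kb and 48.4 kb. In proliferating cultures gaps came to 15.3 kb in HoxA, 42.0 kb in HoxB, 60.6 kb in HoxC and 34.6 kb in HoxD. At 30 h they came to 5.4, 30.6, 2.8 and 9.7 kb. HoxB had the most gap length left, mainly in its gap of 18.7 kb from 96074625 to 96093288, and HoxC the least. Gaps of 3 kb or more fell in number from 10 to 4. The widest proliferating gaps were 39.1 kb on the Hoxc13 side of HoxC, 34.1 kb behind the Hoxb13 block, 29.2 kb on the Hoxd1 side of HoxD and 9.0 kb on the Hoxa13 side of HoxA. Peaks at 30 h filled 93.4%, 36.7%, 80.7% and 100% of them. At equal covered length the filling was 84.8% in HoxC and 5.89% in HoxB, and 47.2% in HoxD, while the HoxA gap was again filled whole.

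**Figure D4:**
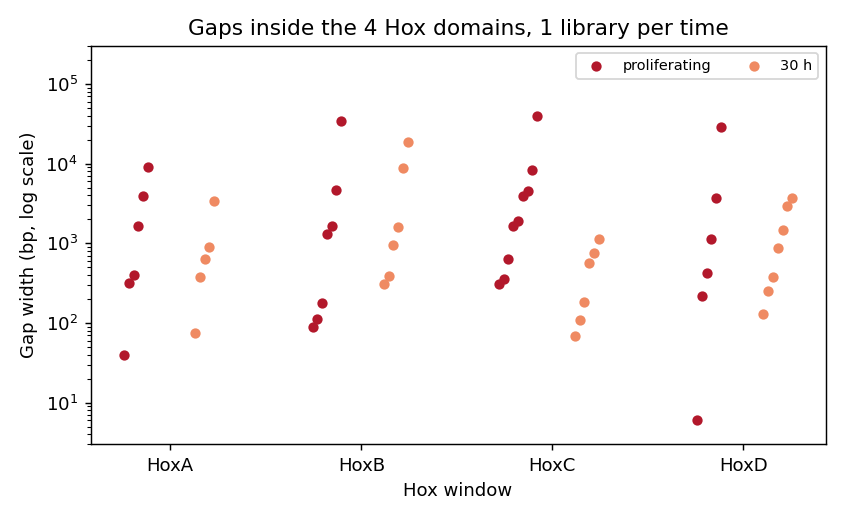
Width of each gap between H3K27me3 peaks (y axis, bp, log scale) in the 4 Hox windows (x axis), with 1 point per gap, placed in order of width, and 1 library per time. Proliferating gaps reach 39055 bp in HoxC, where the widest at 30 h is 1120 bp, while HoxB keeps a gap of 18664 bp at 30 h.

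Of the 28 proliferating gaps, 20 lay wholly under 30 h peaks, 6 partly and 2 not at all (19, 5 and 4 at equal covered length). The 2 left by the full list were narrow and recurred at nearly the same place. In HoxA the gap from 52141457 to 52141771 (315 bp) was matched at 30 h by a gap from 52141400 to 52141779 (380 bp). An H3K4me3 peak covered 271 of the 315 bp and 279 of the 380 bp. In HoxD the gap from 74543483 to 74543702 (220 bp) was matched by 1 from 74543466 to 74543714 (249 bp), with no H3K4me3 peak over it. No other gap of either list met H3K4me3. The sequence of these breaks was not analysed here.

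H3K4me3 was found in 9 peaks of the windows, 5 in HoxA, 2 in HoxC, 2 in HoxD and none in HoxB. Of the 10555 tiles of 250 kb, 41.0% held no H3K4me3 peak and the median tile held 1.0. The tiles were not matched for genes, so this does not show how unusual none is for a cluster of 10 named genes. All 9 peaks overlapped H3K27me3 in proliferating cultures (66.4 to 100%), against 11.0% of the whole H3K4me3 list, and all 9 did at 30 h (66.4 to 100%), against 14.3%. H3K27me3 covered 71.5% and 87.8% of the windows, so much overlap would be met at almost any position in them. All 9 were covered for at least 50% of their width at both times. H3K4me3 at 30 h was not analysed here, and peaks that overlap may come from different cells or different copies of the locus.

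The H3K4me3 peaks of the windows were small and mostly weak. Their median width was 1039 bp against 1970 bp for the list, and all 9 were narrower than that median. Their median score was 192.61 against 2622.34, and all 9 lay below that median too. In the weakest of 5 score groups stood 6 of them, 2 in the next and 1 in the middle group. None reached the score of 3100, which 46.1% of the list did or passed.

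In HoxA the strongest H3K4me3 peak, from 52107742 to 52109438, was 1697 bp wide with a score of 2427.71. It lay on the Hoxa2 side, 11.9 kb inside the start of the 45.7 kb proliferating H3K27me3 block. The next, from 52141501 to 52142748, had a score of 373.04 and lay over the narrow break described above, with 78.3% of its width under proliferating H3K27me3 and 77.6% under 30 h H3K27me3. It was the only 1 of the 9 not wholly under H3K27me3. Those from 52153465 to 52154503 and from 52171099 to 52172136 had scores of 50.57 and 475.92. Only 0.15% of the list scored below the former. The last, from 52255647 to 52256838, scored 170.95 and lay on the Hoxa13 side, 2.5 kb inside the 23.2 kb block.

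The remaining 4 H3K4me3 peaks had scores between 156.97 and 201.36. In HoxC 1 peak from 102829219 to 102830340 lay deep inside the 139.7 kb block, 92.0 kb from its start. The other, from 102932209 to 102933213, lay on the Hoxc4 side in the middle of a proliferating H3K27me3 peak of 6.1 kb. In HoxD the peak from 74549657 to 74550584 lay 6.0 kb inside the 49.8 kb block. The last, from 74600482 to 74601514, lay in the middle of the separate 7.9 kb H3K27me3 peak, 3.4 kb from its start and 3.5 kb from its end. Thus 2 of the 9, 1 in HoxC and 1 in HoxD, sat centrally in small H3K27me3 peaks apart from the main blocks, and at 30 h both lay inside the wide peaks of 213.1 and 75.1 kb. Seen from H3K27me3, 7 of 32 proliferating Hox peaks (21.9%, 9.28 to 40%) and 5 of 28 at 30 h (17.9%, 6.06 to 36.9%) overlapped H3K4me3, near the 19.5% and 16.0% of the lists.

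**Figure D5:**
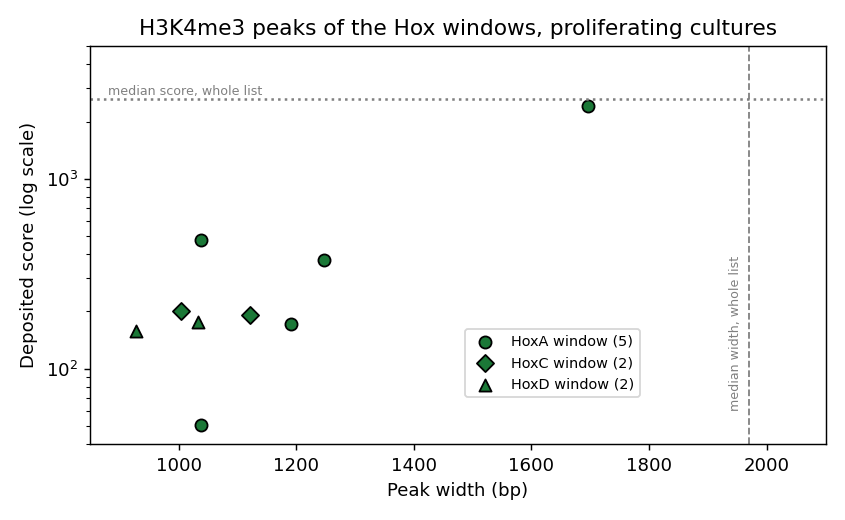
Width (x axis, bp) and deposited score (y axis, log scale) of the 9 H3K4me3 peaks in the Hox windows, from 1 library of proliferating cultures, with the medians of the whole list as lines. All 9 points lie below both medians, and the highest is the HoxA peak with a score of 2427.71.

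The peaks at 30 h that met no proliferating peak numbered 2 in HoxA and 4 in each of HoxB, HoxC and HoxD. Their widths ranged from 2070 to 18053 bp, with a median of 3330 bp, and their scores from 75.95 to 1558.08, with a median of 181.53. Together they held 66.2 kb, of which 34.1 kb lay in HoxC. The widest, 18.1 kb from 102705450 to 102723502 on the Hoxc13 side, had the highest score of the 14. In HoxB, 3 of the 4 lay in the stretch between the Hoxb13 block and the rest of the cluster, from 96072334 to 96101884.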

How the data were processed

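The submitters' processing notes name Bowtie2 and mm9. Per the methods, the authors called peaks with MACS, without model and without lambda for H3K27me3. Its version and threshold, its H3K4me3 settings and its handling of inputs remain not given in the sources used here; input libraries were not used. The deposited score of each peak served only to rank peaks within 1 list, ties going by width. Starts were taken as counted from 0 and are printed counted from 1. Coverage, edges, gaps and overlaps (1 bp or more) came from scripts in Python 3.11.15 (pandas 2.3.3, numpy 2.4.6), intervals (95%, exact, Clopper-Pearson) from scipy 1.17.1, by code tested on 20 simulated pairs of lists. Tiles covered chromosomes 1 to 19, X and Y as far as whole tiles fitted before the last peak. Plots used matplotlib 3.10.9. With 1 library per mark and time nothing was tested.

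The regions, the genes and the tables compared were chosen with earlier results of these data known. All peaks of the windows were to be described, and the promoters of Hoxb4 and Hoxc4 and the group of 4 weaker score groups were chosen after the data were seen. Sequences were read from RefSeq tables of GRCm38.p6, the primers from the study's primer list.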

Additional observations from a re-analysis of the deposited data

How the results depend on the processing

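No paired analysis was possible because each group has 1 library and no test was run. With the stronger 50% of each list, proliferating coverage was 164.9 kb in HoxA, 156.7 kb in HoxB, 204.5 kb in HoxC and 122.6 kb in HoxD, and 30 h coverage 189.1, 184.5, 266.6 and 158.8 kb; the outer edges moved to 52095806 (HoxA, proliferating, low side), 52283913 (HoxA, 30 h, high side), 96239253 (HoxB, proliferating, high side) and 96248675 (HoxB, 30 h, high side), the other 12 stayed, and 0 H3K4me3 peaks were left in the windows, hence 0 over H3K27me3 at either time. With peaks less than 3 kb apart merged, coverage was 170.6, 165.8, 215.1 and 125.6 kb in proliferating cultures and 194.6, 192.5, 276.1 and 166.9 kb at 30 h, and gaps numbered 10 and 4. With the 30 h list reduced to 9470 peaks, HoxB had 187.0 kb and HoxD 158.8 kb, HoxA and HoxC being as before. With windows widened by 50 kb, proliferating coverage was 182.5 kb in HoxB, 226.7 kb in HoxC and 131.7 kb in HoxD, 30 h coverage was 234.1, 333.1 and 179.3 kb, and gaps numbered 39 in proliferating cultures and 42 at 30 h, which turns their order. In a setting chosen after seeing the data, only the strongest 2196 peaks at 30 h were kept, which cover as much as the proliferating list; coverage at 30 h was then 185.8, 168.9, 266.6 and 144.2 kb, gaps numbered 10, and the high-side edges at 30 h lay at 52279687 in HoxA and 96240940 in HoxB, the latter inside the proliferating edge. In each setting coverage was higher at 30 h in 4 of 4 windows. At equal covered length this is no separate check, since that cut favoured the high-scoring Hox peaks. The ratio over the 4 windows ranged from 1.15 (equal covered length) to 1.32 (wider windows). These shifts follow from fewer, more or joined peaks entering. No depth is given, and a list may be long or short for that alone; this was not tested.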

Other observations

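Beyond the windows the clusters differed in their surroundings. The nearest H3K4me3 peak on the Mtx2 side of HoxD, from 74663131 to 74665147, had a score of 3100 and lay 13.1 kb past the window, and 148 bp of it were under H3K27me3 at 30 h and 0 bp in proliferating cultures. On the side of Hoxd13 the nearest, from 74415684 to 74417877, also scored 3100, lay 52.1 kb outside and met no H3K27me3. Past the Hoxc4 side of HoxC the nearest lay 16.9 kb outside, scored 360.64 and met none. Past the Hoxc13 side it lay 101.7 kb outside, scored 974.95, and had 1510 bp under H3K27me3 at 30 h and 0 bp in proliferating cultures. The nearest on the Hoxa2 side of HoxA lay 86.2 kb outside, scored 3100, and had 1590 bp under H3K27me3 in proliferating cultures and 1558 bp at 30 h. The nearest on the Hoxb13 side of HoxB, 53.6 kb outside, lay wholly under H3K27me3 in both lists. Past Hoxb1 and Hoxa13 the nearest H3K4me3 peaks were 377.7 and 289.0 kb away, scored 3100 and met no H3K27me3.

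The windows held 2.28% of the covered length of the proliferating H3K27me3 list, 1.11% of that at 30 h and 0.026% of that of H3K4me3. In the whole lists 263 of 15187 peaks at 30 h met 3 or more proliferating peaks, the most being 11; the Hox windows held 4 such peaks, which met 3 (in HoxA), 6 (HoxB), 7 (HoxC) and 3 (HoxD).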
